A study of Mus musculus with 2 samples.

Results

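Endothelial cells of the mouse hippocampus were taken as the cells in which at least 3 of 9 endothelial genes (Flt1, Cldn5, Pecam1, Cdh5, Tek, Abcb1a, Egfl7, Emcn and Ly6c1) had a value of 2 or more and fewer than 3 of 5 mural and fibroblast genes (Pdgfrb, Rgs5, Abcc9, Kcnj8 and Dcn) did. The rule found 72 of 15930 cells. They comprised 28 of 7094 cells of a wild-type library (0.395%, exact Clopper-Pearson 95% interval 0.262 to 0.570%) and 44 of 8836 cells of a knock-in library (0.498%, 0.362 to 0.668%). The intervals overlapped, and they cover counting error only. The study asked how an allele of Pigv, which encodes a mannosyltransferase of glycosylphosphatidylinositol (GPI) anchor synthesis, acts on the mouse brain. The wild-type control mice and the mice homozygous for the edited allele Pigv341E were of the strain C57Bl.6/J, and their ages are not given in the sources used here. Cells of 8 hippocampi of 4 mice were pooled per genotype after dissociation in the cold, so each genotype is 1 droplet library without a replicate, and effects of genotype and of library cannot be told apart. All comparisons between genotypes below are therefore descriptions of 2 libraries without a test.

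The endothelium of brain vessels forms the blood-brain barrier. Its cells are sealed to each other by tight junctions, carry nutrients in through solute carriers, pump lipophilic compounds back with ABC transporters, and keep vesicle transport low under the control of Wnt signals from the brain tissue. Their expression changes along the vessel from arteries through capillaries to veins. Several endothelial surface proteins, among them those of the Ly6 family and carbonic anhydrase 4, are held by the GPI anchor that Pigv helps to build.

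As examples of the sequence before genes of endothelial preference, the 250 bases before the start of Slco1a4 (GRCm38.p6, chr6:141856221-141856470, minus strand), Adgrl4 (chr3:151437632-151437881, plus strand) and Slc2a1 (chr4:119108495-119108744, plus strand) are given from RefSeq, with capitals marking matches on either strand to AGGAAG (the core of ETS factor sites) and CATTGT (a core of SOX factor sites).
Slco1a4: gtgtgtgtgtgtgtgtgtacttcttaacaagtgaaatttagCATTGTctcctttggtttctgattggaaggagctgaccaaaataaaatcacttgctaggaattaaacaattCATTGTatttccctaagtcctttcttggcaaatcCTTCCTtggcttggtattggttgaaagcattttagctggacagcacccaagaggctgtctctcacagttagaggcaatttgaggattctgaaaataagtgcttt
Adgrl4: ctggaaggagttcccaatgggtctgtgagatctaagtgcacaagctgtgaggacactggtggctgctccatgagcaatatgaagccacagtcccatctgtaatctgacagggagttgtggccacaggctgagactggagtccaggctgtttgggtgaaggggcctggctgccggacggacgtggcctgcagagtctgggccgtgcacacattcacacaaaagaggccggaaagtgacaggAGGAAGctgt
Slc2a1: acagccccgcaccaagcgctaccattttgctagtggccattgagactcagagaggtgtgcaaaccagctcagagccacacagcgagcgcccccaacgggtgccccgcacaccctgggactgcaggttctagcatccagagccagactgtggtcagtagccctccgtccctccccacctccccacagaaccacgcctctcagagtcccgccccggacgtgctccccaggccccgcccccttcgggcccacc
Slco1a4 encodes an organic anion carrier, Adgrl4 an adhesion receptor of endothelium and Slc2a1 the glucose carrier of the barrier, whose window held neither string. Among 150 promoters that RefSeq gave for 105 of the 147 genes of endothelial preference described below, 30.7% held AGGAAG, against 29.5% of all 32851 promoters. CATTGT was in 5.33% against 10.7%, and CTTTGA, the core bound by TCF and LEF factors, in 12.7% against 13.8%. A match is a string of letters and not a bound site.

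Few cells lay at the limit of 3 rule genes. In all, 6555 wild-type and 8086 knock-in cells had none of the 9 genes at 2 or more, 485 and 664 had 1, and 26 and 40 had 2. No wild-type cell and 4 of the endothelial knock-in cells had exactly 3, and the median endothelial cell had 6 in each library. Of the 28 wild-type endothelial cells 25 had 5 or more, as had 32 of the 44 from the knock-in library. The mural and fibroblast limit left out 2 knock-in cells and no wild-type cell. These values chose the cells and are given as a description.

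**Figure D1:**
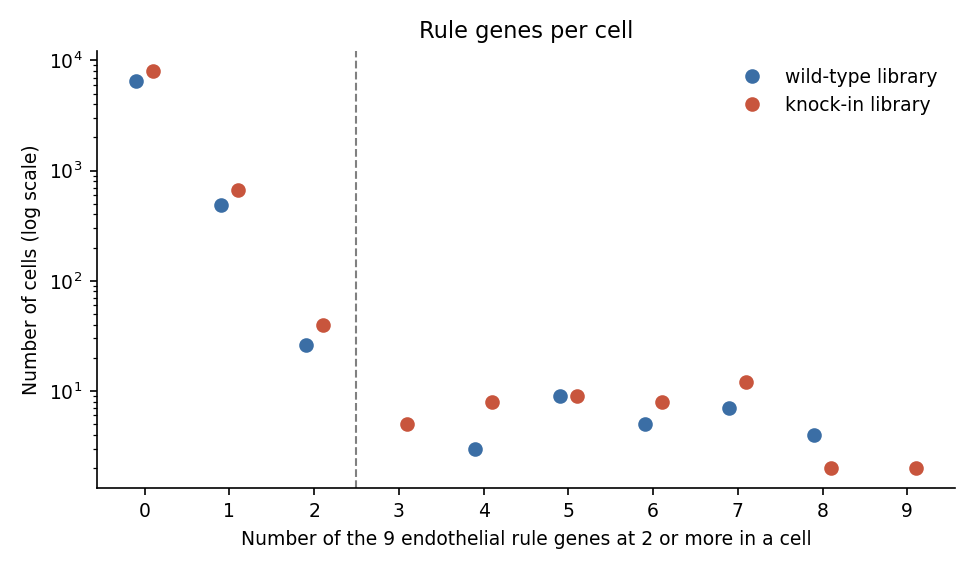
Number of cells (y axis, log scale) with each number of the 9 endothelial rule genes at a value of 2 or more (x axis) in the wild-type library (blue) and the knock-in library (red), with the limit of 3 as a dashed line and counts of 0 not drawn. Counts fell from 6555 and 8086 cells with no rule gene to 26 and 40 with 2, and those to the right of the line include the 2 knock-in cells left out for mural genes.

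The label was checked with 30 endothelial genes that the rule did not use, 28 of which were in the table. The level of a gene is its summed value in a set of cells per 10000 of the set's whole sum. They are compared between cells and not between genes, since transcript length and capture differ. Wild-type endothelial cells had a summed level of the list of 62.8 and knock-in ones of 72.1, against 1.71 and 1.91 in all other cells. The median endothelial cell had 9 (wild-type, range 2 to 16) and 11 (knock-in, range 0 to 16) of these genes at 2 or more. Just outside the limit, cells with 2 rule genes had a summed level of 5.50 and 3.83 and a median of 1 gene. Just inside, the 4 knock-in cells with 3 rule genes had 46.3 and a median of 5.5 genes. The label held for the cells as a group, but not equally for each cell. Cells with 2 rule genes had up to 3 (wild-type) and 6 (knock-in) of the 28 genes at 2 or more. Some endothelial cells had no more: a wild-type one had 2, and a knock-in one with 3 rule genes and 4760 detected genes had 3. The clearest exception was another knock-in cell with 3 rule genes. It had none of the 28 genes at 2 or more, all 10 genes of a microglia list at 2 or more, 5050 detected genes and a doublet call.

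Genes of other cell types had values above 0 in the endothelial cells. The values are depth-corrected, and how far they reflect RNA of other cells was not tested. Of 12 neuronal genes, the median endothelial cell had 7 at 2 or more in each library, close to the 8 of all other cells, and their summed level was 89.0 in wild-type and 85.1 in knock-in endothelial cells against 174 and 160 elsewhere. Of 10 microglia genes, which include Csf1r, P2ry12 and C1qa, 3 wild-type and 7 knock-in endothelial cells had 5 or more at 2 or more, while the medians were 0 and 1. Mural genes (12 in the list) had a median of 0, and no endothelial cell had 3 or more of them. Pdgfrb, Rgs5, Abcc9 and Kcnj8 of this list are also limited by the rule. The low mural counts were thus partly set by the choice of cells. At least 3 of 10 astrocyte genes were at 2 or more in 3 of 28 wild-type and 11 of 44 knock-in endothelial cells. For 10 oligodendrocyte genes these were 7 and 13 cells. More than 3000 genes were detected in 4 wild-type and 12 knock-in endothelial cells. The part of these values in the differences between the libraries was not tested beyond leaving such cells out.

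The endothelial cells had lower totals than the other cells. The deposited values are depth-corrected, so the depth of sequencing is unknown. The median total of wild-type endothelial cells was 7151.5 and that of knock-in ones 7581.5, against 8643.5 and 9617 in the other cells. Detected genes had medians of 2369 and 2454, and of 711 and 718.5 when cells were thinned to 1000 each, where the other cells had 713 and 731. Mitochondrially encoded transcripts took a median of 0.514% and 0.550%, against 0.123% and 0.219% in the other cells. Of 28 cell barcodes shared by the libraries, none belonged to an endothelial cell. A doublet caller marked 0.846% and 1.70% of all cells and 1 and 3 of the endothelial cells, which were kept.

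Genes were then compared between endothelial and all other cells in each library. Of 1943 genes that reached a level of 1 and were above 0 in 25% of endothelial cells in both libraries, 147 (7.57%) had a log2 ratio of endothelial to other cells of at least 2 in both, with 0.1 added to each level. They included 8 of the 9 rule genes, all but Cdh5. The cells were chosen on endothelial genes, so this count is a description with no test. Mecom, a transcription factor gene, had a level of 15.2 in wild-type and 15.7 in knock-in endothelial cells against 0.07 and 0.06 in the others. It was at 2 or more in 85.7% (67.3 to 96.0%) and 93.2% (81.3 to 98.6%) of endothelial cells and in 0.778% and 0.569% of other cells. Slco1a4 had levels of 13.2 and 10.6 against 0.02 and 0.04, and was at 2 or more in 25 of 28 and 37 of 44 cells.

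The genes of largest ratio covered signalling, transcription and transport. Ptprb, the receptor phosphatase that acts on Tie2, had levels of 10.2 and 13.1. Adgrl4 had 5.64 and 7.49 and was at 2 or more in 75% and 84.1% of endothelial cells, against 0.127% and 0.0341% of other cells. Lef1, a transcription factor of the Wnt pathway, had 14.9 and 10.1. Ets1 had 4.18 and 3.86, and Cyyr1, a membrane protein gene, had 4.51 and 7.15. Ebf1 was at 15.7 and 12.6 in endothelial cells but at 23.5 in 64 mural cells, so it did not mark endothelium against mural cells. These mural cells had 3 or more of Pdgfrb, Rgs5, Abcc9, Kcnj8 and Vtn at 2 or more. They also had fewer than 3 endothelial rule genes at 2 or more. By contrast Mecom, Slco1a4, Ptprb and Adgrl4 were all at a level of 0 in those mural cells. Cells rich in endothelial rule genes had been left out of them, so this contrast is partly set by the choice of cells.

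**Figure D2:**
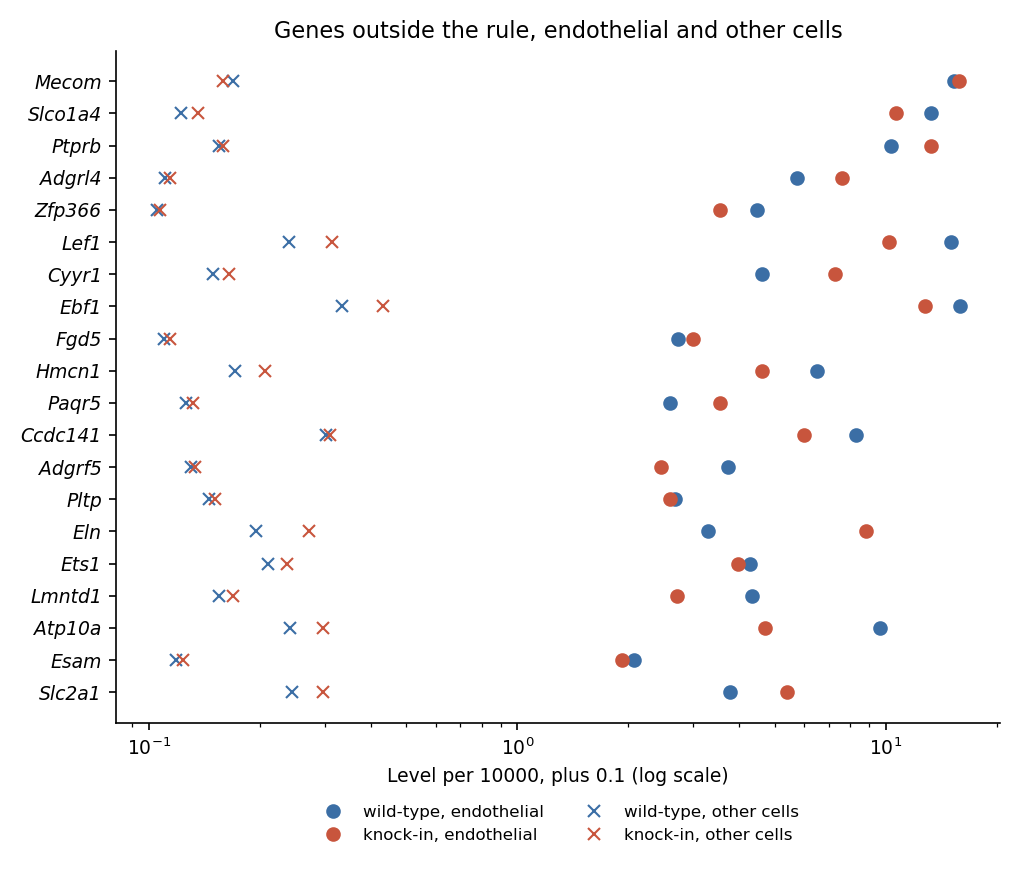
Levels per 10000, with 0.1 added, on a log axis for the 20 genes outside the rule with the largest ratio of endothelial to other cells, as filled circles for endothelial cells and crosses for all other cells of the wild-type (blue) and knock-in (red) library. Each gene's circles lie to the right of its crosses, with Mecom at 15.2 and 15.7 against 0.07 and 0.06, and Eln (3.20 and 8.74) and Atp10a (9.54 and 4.60) have the circles of the libraries widest apart.

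Transporter, junction and transcription factor genes were among the 147. Of 30 carrier and efflux genes, 16 reached the limits of level and detection in both libraries. Beside 7.57% of all 1943 genes at those limits, 11 of these 16 passed the endothelial ratio. These were Slc2a1, the glucose carrier of the barrier (3.67 wild-type, 5.28 knock-in, against 0.144 and 0.197 in other cells), the thyroid hormone carrier gene Slco1c1 (6.81 and 4.74), the taurine carrier gene Slc6a6 (14 and 10.8), the arginine carrier gene Slc7a1 (4.98 and 3.01), Slc39a10, Slco1a4, the transferrin receptor gene Tfrc (3.24 and 2.07), the lipid flippase gene Atp10a, and the efflux pump genes Abcb1a, Abcg2 (4.46 and 3.15) and Abcc4 (5.17 and 8.54). Abcb1a is also a gene of the rule. Of 20 junction genes, 10 reached the limits and Ocln, Jam2, Esam and Cgnl1 passed, beside the same 7.57%. Ocln, which encodes occludin, had 1.83 and 2.33 against 0.185 and 0.184. The scaffold gene Tjp1 had 24.7 and 24.1 but also 6.25 and 5.67 in other cells, and its wild-type log2 ratio of 1.96 missed the limit of 2.

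Of 33 transcription factor genes of endothelium, 11 reached the limits. Beside 7.57% of all genes at those limits, 8 of these 11 passed: Erg, Fli1, Ets1, Elk3, Epas1, Ebf1, Mecom and Lef1. Erg, Fli1, Ets1 and Elk3 belong to the ETS family. Epas1, the hypoxia-inducible factor of endothelium, had 3.67 and 4.00 against 0.151 and 0.154. Some well-known endothelial genes had few transcripts here. Kdr, the main VEGF receptor gene, had a level of 0.611 and 0.511 and was at 2 or more in 3 and 7 cells. Cdh5, the gene of VE-cadherin, was at 2 or more in 7 and 8. Plvap, the gene of the diaphragm protein of leaky vessels, was at 0.141 in the wild-type cells and at 0 in the knock-in cells, where a count of 0 allows up to 6.82% of cells with a value above 0 and sets no limit on cells that express the gene.

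The endothelial cells differed among themselves along the vessel. Each cell was counted for the arterial (24 genes), capillary (15 genes) or venous (17 genes) list of which it had the most genes at 2 or more, at least 2. These groups are ranges of a score and not cell types. The capillary group held 23 of 28 wild-type cells, or 82.1% (63.1 to 93.9%). It held 24 of 44 in the knock-in library, or 54.5% (38.8 to 69.6%). The arterial group held 4 (14.3%, 4.03 to 32.7%) and 9 (20.5%, 9.80 to 35.3%). The venous group held 1 (3.57%, 0.0904 to 18.3%) and 8 (18.2%, 8.19 to 32.7%), and 3 knock-in cells with equal numbers had no group. The intervals of the libraries overlapped in each group. The leading list was ahead by 3 genes or more in 23 wild-type and 25 knock-in cells and by only 1 gene in 3 and 10.

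Mgp and Eln, genes of the vessel wall matrix, were at or near 0 in capillary cells and reached high values in some arterial cells of each library. The 9 knock-in arterial cells include the cell described above that had no independent endothelial gene at 2 or more, in which Mgp and Eln were at 0. Mgp, the gene of matrix Gla protein and a member of the arterial list, was at 0 in all 23 wild-type and all 24 knock-in capillary cells, at values of 0, 0, 2 and 15 in the 4 wild-type arterial cells, and at 0 to 63 (median 14) in the 9 knock-in ones. Eln, the elastin gene, was not in the list. Its values were 2, 4, 9 and 48 in the wild-type arterial cells and 0 to 77 (median 23) in the knock-in ones, and no capillary cell of either library exceeded 2. Over both libraries its level was 33.8 in the arterial group and 0.542 in the other endothelial cells. Rasgrf2, a Ras exchange factor gene (3.95 against 0.282), and the kinase gene Nuak1 (4.53 against 0.368) were outside the list too. They were at 2 or more in 69.2% and 61.5% of arterial cells. In wild-type cells these were 3 of 4 each, and in knock-in cells 6 and 5 of 9. Eln, Rasgrf2 and Nuak1 were picked for a high arterial ratio in these same cells. Only genes at 2 or more in at least 50% of arterial cells were eligible, so these values are a description.

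Venous cells carried Il1r1, the interleukin-1 receptor gene, and Vwf, the gene of von Willebrand factor, both of the venous list. Il1r1 was at 5 to 56 (median 14.5) in the 8 knock-in venous cells and at 18 in the single wild-type one. Its values in capillary cells ran from 0 to 21 in wild-type and 0 to 11 in knock-in, with medians of 0. Vwf was at 2 to 22 (median 5) in the knock-in venous cells and at 6 in the wild-type one. It was not confined to them: 5 of 9 knock-in arterial cells (median 3) and 6 of 24 knock-in capillary cells also had Vwf at 2 or more. Outside the list, Nrp2, a receptor gene for VEGF-C and semaphorins, had a level of 7.59 in the venous group and 0.733 in the rest, Pla2g4a, a phospholipase gene, 5.83 and 0.672, and Rab27a, a gene of granule transport, 2.71 and 0.122. Nrp2, Pla2g4a and Rab27a were picked for a high venous ratio in these same cells and are a description. Only genes at 2 or more in at least 50% of venous cells were eligible. With 1 wild-type cell, the venous values describe the knock-in library almost alone.

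Lrp8, Lmntd1, Sema3c, Slco1c1 and Igf1r had the highest ratio of capillary to other endothelial cells among eligible genes. Eligible genes were outside the rule and the segment lists. They had a level of at least 1 and were at 2 or more in at least 50% of capillary cells. Slco1c1 had a level of 7.26 in the capillary group and 2.42 in the rest, and Lrp8, a lipoprotein receptor gene, 2.46 and 0.247. Igf1r, the IGF-1 receptor gene, was at 2 or more in every endothelial cell and had 40.0 and 13.7. Slco1a4 was lower in arterial than in capillary cells in each library. Its medians were 2 and 2 in the arterial groups (wild-type, knock-in), 11 and 8.5 in the capillary groups and 12 in the knock-in venous group, and the ranges of the arterial (0 to 7 and 0 to 8) and capillary groups (0 to 26 and 0 to 23) overlapped. The cells were grouped on the same values, so no test was made.

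**Figure D3:**
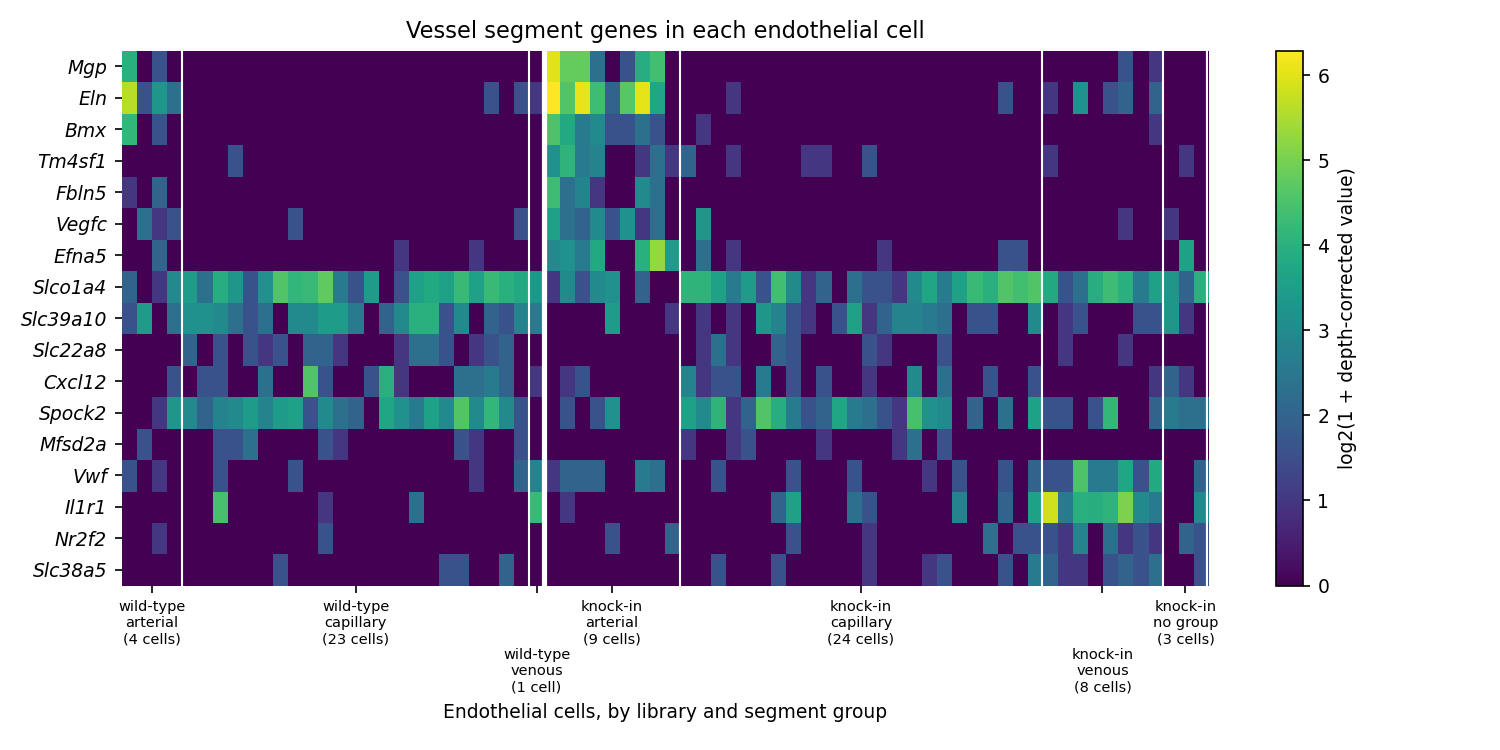
Values of 17 genes (rows) in each of the 72 endothelial cells (columns), as log2 of 1 plus the value by colour, with white lines between the segment groups of each library. Mgp, Eln and Bmx are bright in many but not all arterial columns (Mgp and Bmx are at 0 in 2 of the 4 wild-type ones) and at most 2 in the 47 capillary columns. Vwf and Il1r1 are bright in the venous columns, Vwf is also at 2 or more in 5 of 9 knock-in arterial columns, and Efna5 is bright in 7 of those 9.

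Pigv itself was too low to check the genotype: it was at 2 or more in 1 of 28 wild-type and 1 of 44 knock-in endothelial cells, at levels of 0.0940 and 0.142, and these counts do not read the edited base. Abl1, the kinase named in the study's title, was at 2 or more in 26 of 28 wild-type cells, 92.9% (76.5 to 99.1%). In the knock-in library it was so in 12 of 44, 27.3% (15.0 to 42.8%). Its level was 9.54 and 2.27, a log2 ratio of -2.02. The median value per cell was 7 and 1, although single cells overlapped, with ranges of 1 to 23 and 0 to 11. The lower values were in each segment group: 33.3% of knock-in arterial, 29.2% of capillary and 25% of venous cells had Abl1 at 2 or more, against 4 of 4, 21 of 23 and 1 of 1 wild-type cells. All other cells differed in the same direction, from 8.99 to 1.29, a log2 ratio of -2.71.

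Most of the genes that set the libraries apart across all other cells did so in endothelium too. Hdc, the gene of histidine decarboxylase, which makes histamine, was at 2 or more in 1 of 28 wild-type and 40 of 44 knock-in endothelial cells. Its level was 1.03 and 8.86 (log2 ratio 2.98), with 0.415 and 8.67 in the other cells. Gm14216, an unnamed gene model, had 0.987 and 8.37 (2.96). The wild-type levels of these 2 genes rest almost wholly on values of 1. Gm14216 was at 1 in every wild-type endothelial cell with up to 2469 detected genes and at 0 in those with 2517 or more. With values of 1 set to 0 the log2 ratios were 5.64 for Hdc and 6.65 for Gm14216. Whether the values of 1 come from the depth correction was not tested. Sec22b, a gene of vesicle transport, had 16.0 and 5.62 (-1.49). Abl1, Hdc, Gm14216 and Sec22b were 4 of the 6 genes past the size rule in the other cells, each in the same direction as in endothelium. The other two, Gm17660 (log2 ratio 1.72 in other cells, 0.62 in endothelium) and Rab40b (1.06 and 0.52), were not past the rule in endothelium.

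Between the genotypes, 2547 genes reached a level of 1 in endothelial cells of 1 library with at least 10% and at least 5 of its cells above 0. Of these, 87 (3.42%) were higher and 80 (3.14%) lower in the knock-in cells by a log2 ratio of at least 1, 167 (6.56%) in all. The same rule over all other cells called 6 of 2075 (0.289%), 4 higher and 2 lower. The endothelial sums rest on 28 and 44 cells and the others on 7066 and 8792, and the rule carries no error rate. In 9 of the 167 genes a single cell held over 50% of the sum of the higher library.

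The 10 genes of largest higher ratio in the knock-in cells included Hdc, Gm14216 and genes of the segment lists. Efna5, which encodes the GPI-anchored ephrin-A5, was at 2 or more in 1 wild-type and 11 knock-in cells, and its level was 0.235 and 3.32 (log2 ratio 3.35). In the arterial group it was at 2 or more in 1 of 4 wild-type cells (highest value 3) and 7 of 9 knock-in cells (median 8, highest 38), and in the capillary group in 0 of 23 and 3 of 24. The wild-type arterial cell had 4776 detected genes and a value of 86 for Reln, a gene known from Cajal-Retzius neurons, and 1 of the 7 knock-in ones (value 10) was the doublet call without independent endothelial genes. The log2 ratio was 3.51 without the doublet calls and 4.70 without the cells of over 3000 detected genes. Other cells had 1.01 and 1.69. Tm4sf1, a tetraspanin-like gene of arterial endothelium, had 0.0940 and 1.45 (3.0), with 1 and 7 cells at 2 or more. Smad6, an inhibitor of BMP signalling, had 0.282 and 2.10 (2.53), and was at 2 or more in 0 of 4 wild-type and 7 of 9 knock-in arterial cells. Mgp had 0.799 and 4.54 (2.37). Nr2f2, the transcription factor gene of venous identity, had 0.141 and 1.08 (2.29), with 1 and 12 cells at 2 or more. Of these 12 knock-in cells, 4 were in the venous, 4 in the capillary and 2 in the arterial group, and the single wild-type venous cell was at 0. Hps3, a gene of organelle trafficking, had 0.141 and 1.14 (2.36), and Sned1, a matrix protein gene, 0.188 and 1.22 (2.20). Kif26b (2.89) rested on 1 knock-in cell with a value of 39.

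The 10 genes of largest lower ratio included Abl1 and 9 others with varied roles. Scarb1, the HDL receptor gene, was at 2 or more in 10 of 28 wild-type and 1 of 44 knock-in cells, and its level was 1.32 and 0.255 (log2 ratio -1.99). Bckdhb, of branched-chain amino acid breakdown, had 1.22 and 0.255 (-1.89), and Plpp1, a lipid phosphatase gene, 1.08 and 0.255 (-1.73). Fnbp4 had 2.49 and 0.681 (-1.73), Ppil2 1.13 and 0.284 (-1.68), Cmtm8 1.22 and 0.312 (-1.68), and the mismatch repair gene Msh3 1.03 and 0.255 (-1.67). Fgf13 (-1.82) drew 47.4% of its wild-type sum from 1 cell with a value of 37. Ptchd4 had 1.27 and 0.312 (-1.73) with 4 and 3 cells at 2 or more. In the other cells each of these 9 genes had a log2 ratio between -0.12 and 0.19.

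**Figure D4:**
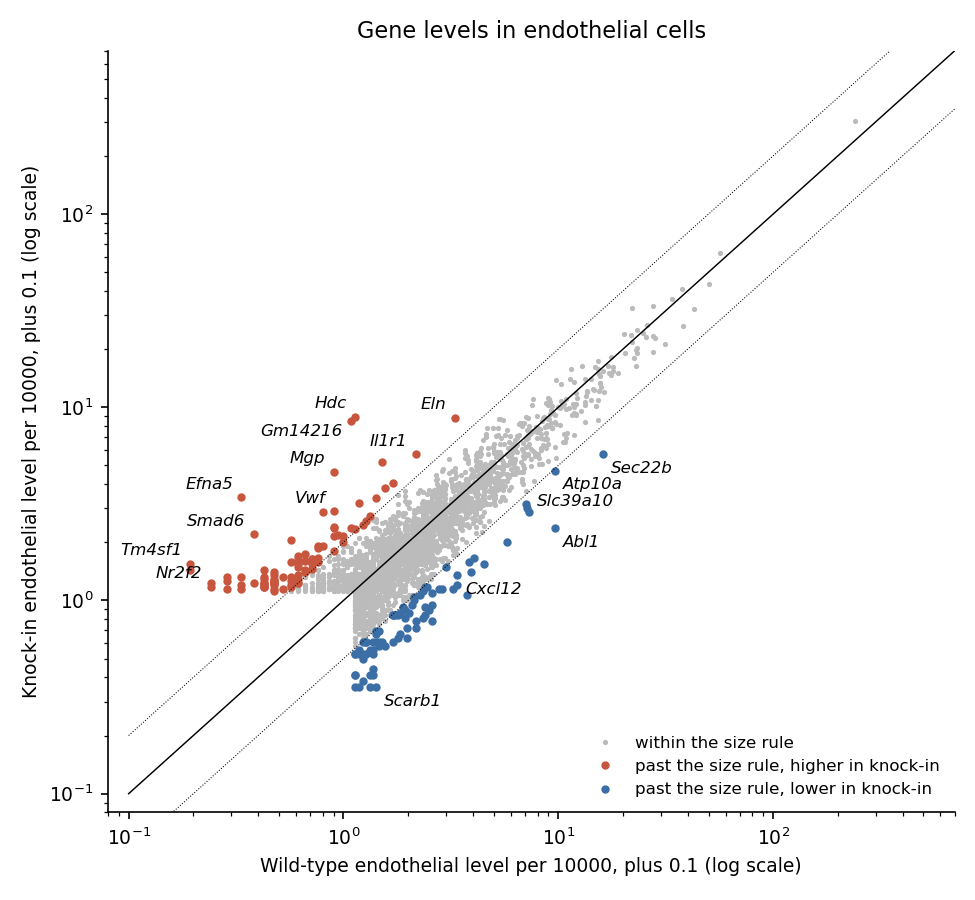
Level per 10000 plus 0.1 of each of the 2547 genes in wild-type (x axis) and knock-in (y axis) endothelial cells, both on log scales, with genes past the size rule in red (87 higher in knock-in) and blue (80 lower), the line of equal levels and dotted lines at log2 ratios of 1 and -1. Most called genes lie at low levels near the limits, while Hdc (1.03 and 8.86), Abl1 (9.54 and 2.27) and Sec22b (16.0 and 5.62) lie far from the line at higher levels.

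Because the segment groups had unequal shares in the libraries, the comparison was repeated in the capillary group alone, with 23 and 24 cells. It called 248 of 2556 genes (9.7%), 106 higher (4.15%) and 142 lower (5.56%), and 78 genes were called in the same direction in both, 46.7% of the 167 and 31.5% of the 248. The signs of Eln (-0.36), Ehd4 (-0.36), Rbpj (-1.03), Bmp6 (-4.24) and Rpl37 (-0.11) turned, and Mgp and Fbln5 were at 0 in every capillary cell. Abl1 (-1.90), Hdc (3.07), Sec22b (-1.49), Scarb1 (-2.41), Slc39a10 (-1.05), Slc22a8 (-1.13), Fnbp4 (-2.03), Sned1 (1.74) and Ntng1 (1.61) stayed past the rule. Of 49 named genes past it in all endothelial cells, 16 stayed, 28 kept their sign or were at 0 but were no longer past it and 5 turned. Efna5 (1.54), Tm4sf1 (1.28), Smad6 (1.20), Nr2f2 (1.66), Vwf (0.58) and H2-D1 (0.18) were among the 28. The ratios of Efna5, Tm4sf1, Smad6 and Nr2f2 were still above 1, and these genes missed only the limits of level or number of cells.

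By gene list, the arterial and venous lists had higher medians in the knock-in cells and the capillary list a lower one. Beside 3.42% of all genes tested, 6 of 8 arterial genes were past the rule and higher: Tm4sf1, Mgp, Fbln5 (log2 ratio 2.13), Vegfc (1.33), Clu (1.25) and Stmn2 (1.24). Clu and Stmn2 are also known from astrocytes and neurons. In the capillary group alone only Clu (1.87) of these 6 stayed past the rule. Tm4sf1 (1.28), Vegfc (0.80) and Stmn2 (2.41) kept their sign but were not past it, and Mgp and Fbln5 were at 0. The median over 17 arterial genes was 0.94, against 0.04 in the other cells and 0.01 over all 6975 genes at that level in endothelial cells, and the same genes had a median of 0.61 in the capillary group alone. Of 5 venous genes tested, 4 were higher, beside the same 3.42%, among them Nr2f2, Vwf (0.799 and 2.81, 1.70) and Il1r1 (2.07 and 5.62, 1.40). The venous median was 1.26 over 12 genes, all of them above 0, and 0.31 for the same genes in the capillary group alone. Nr2f2 (1.66), Vwf (0.58) and Il1r1 (0.47) were not past the rule in that group. The segment groups had unequal shares in the libraries, as given above, and their part in these medians was not tested beyond the values in the capillary group. Of 9 capillary genes tested, Slc22a8 and the chemokine gene Cxcl12 were lower, beside 3.14% of all genes tested. In the capillary group alone Cxcl12 (-0.99) was not past the rule. The median over 14 capillary genes was -0.57, or -0.35 in the capillary group alone.

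Among barrier transporters, 3 of 19 genes tested were lower and none higher in the knock-in cells, beside 6.56% of all genes in either direction. Slc39a10, a zinc importer gene, had levels of 7.19 and 2.75 (log2 ratio -1.35) and was at 2 or more in 24 of 28 wild-type cells, 85.7% (67.3 to 96.0%). In the knock-in library 18 of 44 reached it, 40.9% (26.3 to 56.8%), and 6.14% and 9.55% of other cells did. In capillary cells it was at 2 or more in 20 of 23 and 13 of 24, with medians of 6 and 2. Slc22a8, an organic anion transporter gene, had 1.60 and 0.511 (-1.47), at 2 or more in 11 and 5 cells. Atp10a had 9.54 and 4.60 (-1.04). It stayed past the rule in only 2 of 9 other settings and was not past it in the capillary group (-0.96). In the other cells the ratios of these 3 genes were above 0, at 0.40, 0.42 and 0.31. Slc7a5, the large neutral amino acid carrier gene, was below the level limit at 0.799 and 0.142, with 6 and 1 cells at 2 or more. The list's median was -0.41 over 28 genes, 18 of them below 0, and Slc2a1 (0.52) and Abcc4 (0.71) were on the other side.

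Of 11 junction genes tested none was past the rule. The median over 14 was -0.05, and Tjp1 (-0.03) and Ocln (0.33) are examples. The rule gene Cldn5, which encodes the main claudin of the barrier, had 7.85 and 5.62 (-0.47), and Flt1 28.0 and 22.9 (-0.29). As genes of the rule these 2 are given without more. In the VEGF, Tie and Notch list, the ligand gene Vegfc and the Notch mediator gene Rbpj (0.611 and 1.53, 1.20) were higher among 6 tested, and Rbpj had 6 knock-in cells at 2 or more with 1 at 41. In the Wnt list, the receptor gene Fzd6 (0.705 and 1.82, 1.25) was higher among 11, with 4 and 20 cells at 2 or more. In the TGF-beta and BMP list, Smad6 and Bmp6 (1.46 and 3.72, 1.29) were higher among 11. Bmp6 was at 2 or more in only 1 and 4 cells. Among transcription factors, Nr2f2 and Lmo2 (0.611 and 1.45, 1.12) were higher of 14 tested. The medians of these lists were 0.41, 0.10, -0.08 and 0.05. Beside these counts, 3.42% of all genes tested were higher and 3.14% lower, and nothing is read from counts this small.

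**Figure D5:**
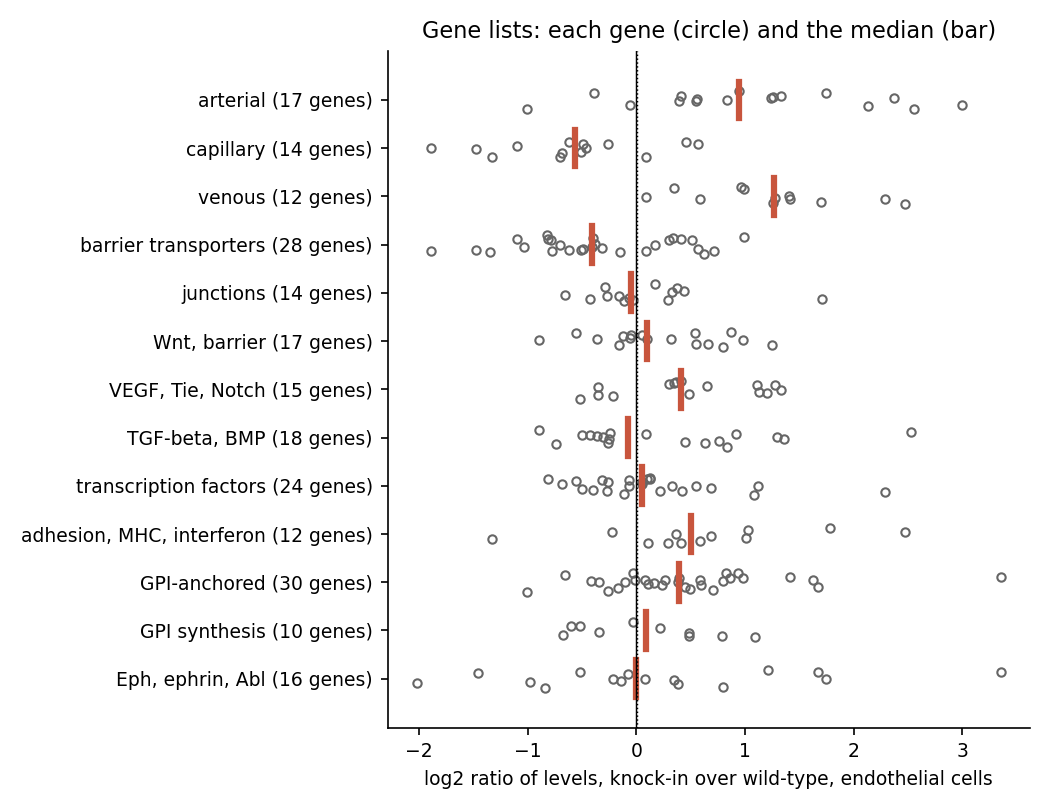
Log2 ratio of knock-in to wild-type level in endothelial cells (x axis) of each gene of 13 lists (circles) with the list's median (red bar), the solid line at 0 and the dotted line at the median of all genes. The arterial (0.94) and venous (1.26) medians lie to the right and the capillary (-0.57) and barrier transporter (-0.41) medians to the left, while single genes of most lists lie on both sides.

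Immune-related genes of endothelium were few. Of 5 tested, the MHC class I gene H2-D1 (1.17 and 2.47, log2 ratio 1.01) and Il6st, the shared receptor gene of the interleukin-6 family (0.235 and 1.05, 1.78), were higher and Cxcl12 (3.29 and 1.25, -1.33) lower in the knock-in cells. Over all genes tested 3.42% were higher and 3.14% lower, and nothing is read from a count this small. Cxcl12 was at 2 or more in 12 cells of each library. In the capillary group it was so in 11 of 23 wild-type (highest value 23) and 10 of 24 knock-in cells (highest 7). Its log2 ratio was -0.99 there and -0.86 with no mural or fibroblast gene allowed, and it was not past the rule in either. The adhesion genes were low, with Vcam1 at 0.705 and 1.11 and Icam1 at 0 and 0.454. Icam1 was above 0 in no wild-type cell, which allows up to 10.7% of cells with a value above 0.

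Transcripts of GPI-anchored proteins of endothelium were present in both libraries. Ly6c1, which the rule used, had levels of 1.55 and 1.53, Ly6a 1.17 and 1.82, Ly6e 2.63 and 3.18, and Car4 1.55 and 1.28. Each passed the endothelial ratio, and none was past the rule between genotypes. Ly6c1 and Ly6c2 (0.658 and 0.795) are near-identical copies, and the counting could split or share their reads. Of 19 GPI-anchored genes tested, Efna5 and the netrin-G1 gene Ntng1 (0.799 and 2.30, log2 ratio 1.42) were higher and none lower, beside 3.42% higher over all genes tested, and nothing is read from a count this small. Ntng1, known from neurons, was at 2 or more in 0 and 12 cells. The list's median was 0.39 over 30 genes. Reck, a GPI-anchored partner of the Wnt7 receptor complex, had 0.799 and 1.67 (0.98), short of the limit. Of the anchor synthesis genes 2 were tested and neither was past the rule: Pigk of the transamidase had 2.73 and 3.18, and Pgap2 1.13 and 0.710.

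Of the 7 Eph, ephrin and Abl genes tested, Efna5 was higher and Abl1 lower, beside 3.42% higher and 3.14% lower over all genes tested. Abl2, the paralogue of Abl1, had 1.93 and 1.82 (log2 ratio -0.08). The receptor genes Epha4 (4.37 and 3.75, -0.22), Epha5 (2.73 and 3.58, 0.38), Epha6 (6.06 and 6.39, 0.07) and Epha7 (2.40 and 2.16, -0.15) were within the rule. Epha5, Epha6 and Epha7 had higher levels in the other cells (5.28 to 16.7 in the wild-type library) than in endothelium.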

How the data were processed

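Cells of 1 pooled wild-type and 1 pooled knock-in library were analysed from a single deposited table of 30223 genes by 15930 cells. The deposited values are whole numbers and were handled as a score and not as raw counts, because the totals per cell lie between 4846 and 14501, and because the table is named for a depth-corrected assay. The submitters' processing notes name Seurat 3.0.0 and GRCm38. The aligner, the filter on cells and how doublets were handled upstream are not given in the sources used here.

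The endothelial rule was applied to the values as deposited, with no other filter on cells, and the libraries were never merged or clustered. Levels, ratios and the size rules are defined where they are first used in the results. Because each genotype is 1 library, no test was made and intervals (exact Clopper-Pearson, 95%) cover counting error only. A limit for a count of 0 uses 3 cells of the library's endothelial cells. Doublets were called per library with Scrublet in scanpy 1.11.5 at an expected rate of 6% and kept. Thinning drew a total of 1000 per cell from the depth-corrected values, so it does not recover depth. Computation used numpy 2.4.6, pandas 2.3.3, scipy 1.17.1 and matplotlib 3.10.9 under Python 3.11.15, and the size rule was tested on simulated data. All 235 genes taken up by the naming rule were located in GENCODE M21.

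The genes named are Pigv and Abl1, the 14 rule genes, the 20 genes outside the rule of largest endothelial ratio, the 10 genes with the highest and the 10 with the lowest ratio between genotypes past the size rule, list members at a level of at least 1 that are highest in their list or past the size rule, and genes that differ across all cells. Kdr, Plvap, Slc7a5, Icam1, Ly6c2 and the segment genes outside the lists were named after their values were seen. List medians use genes of a mean level of at least 0.2. The members, the 33 gene lists and the tests were chosen with earlier results of these data known, so no pattern here is independent support for them. Alternatives covered the rule's limits, doublet calls, the constant added, the level limit, single values of 1 and the segment rule.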

Additional observations from a re-analysis of the deposited data

How the results depend on the processing

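No paired analysis was possible because each genotype is 1 library. Leaving out cells with 3 or more genes of any other list left 0% of wild-type and 0.0113% of knock-in cells (0 and 1 cells), since the neuronal list alone reached 3 genes in nearly all, and gave no gene counts. The counts of genes past the size rule were 87 higher, 80 lower and 147 for endothelial over other cells. They became 36, 38 and 71 with 0.5 added to the levels, 24, 33 and 89 with a level limit of 2, 1085 higher and 250 lower with no level limit, and 197 higher and 137 lower with values of 1 set to 0. The venous share of wild-type cells became 0% when segment genes were read after thinning. Alternatives chosen after seeing the data gave 136 lower without the cells holding 5 or more genes of another non-neuronal list (22 and 34 cells left), 161 higher and 159 lower without the cells of over 3000 detected genes (24 and 32 left), and 142 lower and a venous median of 0.49 in the capillary group, with list genes chosen anew by their level there (0.31 over the genes of the full comparison). Rbpj turned to -0.53 with a marker value of 3 and to -0.81 without the cells of over 3000 detected genes. In the capillary group Eln (-0.36), Ehd4 (-0.36), Rbpj (-1.03), Bmp6 (-4.24) and Rpl37 (-0.11) turned. Of 49 named genes past the rule, 18 stayed past it in the same direction in all 9 other settings, among them Abl1 (-2.57 to -1.86), Hdc (2.61 to 5.64), Efna5 (2.38 to 4.70), Slc39a10 (-1.45 to -1.23) and Scarb1 (-3.15 to -1.27), and Atp10a (-1.03 to -0.80) did so in 2. These 9 do not include the capillary group, where 16 of the 49 stayed past it. Efna5 (1.54) did not, as it missed the limits of level or number of cells there. The cause of these shifts was not tested. Depth is unknown for these values, and 28 and 44 cells limit every share and low level.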

Other observations

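Ribosomal protein genes were higher in the knock-in endothelial cells as a list. Of 15 tested, 7 were past the size rule and higher, beside 3.42% of all genes tested, and none lower: Rpl37 (log2 ratio 1.14), Rpl37a (1.5), Rpl41 (1.20), Rps2 (1.46), Rps12 (1.08), Rps24 (1.20) and Rps27a (1.56). The median over 49 genes was 0.54, with 41 above 0, against 0.21 in the other cells. The median was 0.07 in the capillary group alone and 1.16 without the cells of more than 3000 detected genes. With 0.5 added to the levels, Rps27a (1.04) alone of the 7 genes stayed past the rule. In the capillary group none of them did. The nuclear oxidative phosphorylation genes had a median of 0.74 over 19, with 1 gene tested and none past the rule. The 9 mitochondrially encoded genes at that level had a median of 0.19 in endothelium and 0.62 in the other cells.

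Extracellular matrix and integrin genes differed little between the libraries. None of 8 tested was past the rule, and the median over 19 was -0.01. Fn1, the fibronectin gene (2.02 wild-type, 2.10 knock-in, against 0.128 and 0.201 in other cells), and the laminin receptor subunit genes Itga1 (2.40 and 1.79) and Itga6 (3.38 and 2.33) passed the endothelial ratio. Immediate early and heat shock genes, which respond to dissociation, had a summed level of 5.78 and 5.56 in endothelial cells and 2.93 and 3.28 in the others, and none of 2 tested was past the rule. Haemoglobin and leukocyte genes (9 in the list) had a summed level of 0.282 and 0.710, below the 5.30 and 8.44 of the other cells. Among astrocyte genes Plpp3 (0.705 and 2.78, log2 ratio 1.84) was past the rule, and among oligodendrocyte genes Cnp (1.36 and 0.511, -1.26). Plpp3 was not past it without doublet calls (0.93) or without the cells of over 3000 detected genes (0.86). Nor was it past the rule without the cells holding 5 or more genes of another non-neuronal list (0.95). In the capillary group it was (2.26).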
